A study of Schizosaccharomyces pombe with 21 samples.

Results

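The transcriptome of fission yeast cells that carry the kcs1-E834K allele was compared with that of cells carrying wild-type kcs1. The members are the 3 kcs1-E834K and the 3 kcs1-WT libraries, chosen by their allele and medium, which makes 6 of the 21 libraries of the series. Every annotated locus was examined, coding and noncoding. The cells were haploid Schizosaccharomyces pombe grown in YES, a yeast extract medium, at 30 °C and harvested in logarithmic phase, and poly(A)+ RNA was sequenced from 3 biological replicates a group. In both groups the kcs1 gene was read from its own promoter and was followed by an ADH1 terminator and a kanMX drug resistance marker, so that cassette is common to mutant and control. Each group is 1 strain, recovered from a heterozygous diploid, and both strains are labelled h+. E834K is a missense change that had first been recovered as a suppressor of growth defects in cells lacking normal Asp1 pyrophosphatase activity, and here it stands alone with intact asp1. A change that comes from the allele and one that comes from another difference between these strains cannot be told apart.

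Kcs1 is the kinase that adds a pyrophosphate group to inositol hexakisphosphate (IP6) and makes 5-IP7. Asp1 has a kinase domain that turns this product into 1,5-IP8 and a pyrophosphatase domain that removes it. In fission yeast 1,5-IP8 favours 3′ processing and transcription termination, and the phosphate acquisition genes pho1, pho84 and tgp1 are repressed in phosphate-rich medium by transcription of a long noncoding RNA (lncRNA) upstream of each gene. Early termination of that lncRNA lets the gene be transcribed.

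The 6 libraries held 19515604 to 27776638 counted reads, and coding loci took 99.1% to 99.2% of them. Of 6988 loci in the file, 6093 had enough counts to be tested: 4958 coding, 1114 noncoding and 21 pseudogenes. Values are normalized counts, which are read counts scaled to a common effective library size, and they are compared here within a gene only. Differences are log2 fold changes of kcs1-E834K minus kcs1-WT with their standard errors (SE) from edgeR's quasi-likelihood test, fitted on all 12 libraries of the kcs1 experiment with Benjamini-Hochberg adjustment over all tested loci. The h+ label stands for P cells, and genes of both mating types were read in all 6 libraries. Of 4 P cell genes, map2 stood at 120 to 176 normalized counts, map3 at 375 to 465, map4 at 720 to 790 and sxa1 at 16040 to 16576. Of 6 M cell genes, the M-factor precursor genes mfm1, mfm2 and mfm3 stood at 0.942 to 15.7, 44.2 to 79.2 and 12.1 to 25.1, mam2 at 91.7 to 121, sxa2 at 176 to 238 and mam1 at 1088 to 1308.

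No difference was detected in the mRNA of the mutated gene. kcs1 had 2110, 2297 and 2222 normalized counts in kcs1-WT and 2214, 2204 and 2393 in kcs1-E834K. The groups overlapped, and the log2 difference was 0.038 ± 0.063 (SE, adjusted p = 0.685). Counts over the whole gene do not read the mutation, so this value does not check the labels. The asp1 mRNA, in contrast, fell from 1476, 1437 and 1419 in the control libraries to 1127, 1148 and 1181 in the mutant, a log2 difference of -0.33 ± 0.067 (adjusted p = 0.00275).

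The change was broad and mostly small. At an adjusted p of 0.05, 519 coding loci were higher in kcs1-E834K (10.5% of those tested) and 910 were lower (18.4%). Of the higher ones, 220 differed by less than 1.2-fold, and 473 (91.1%) by less than 2-fold. Of the lower ones 382 stayed under 1.2-fold and 885 (97.3%) under 2-fold. The median size was 1.23-fold among the coding genes that rose and 1.22-fold among those that fell. Over all tested loci the median log2 difference was 0.019, which is the reference for the medians of gene groups given below. The coding shares of 10.5% higher and 18.4% lower are the reference for the counts in gene lists. With the added requirements of a 2-fold difference and a mean of at least 100 normalized counts in the higher group, 21 coding genes were called higher (0.424% of those tested) and 21 lower (0.424%). These 42 genes are the coding calls of the text, and in each of them all 3 mutant libraries lay on 1 side of all 3 control libraries, as they did in 52% of all tested coding loci. Without the minimum count, 46 coding genes were at least 2-fold higher at the adjusted p. The counts over all loci, 757 higher (12.4% of those tested) and 939 lower (15.4%), depend on single libraries: 615 were lower without control replicate 1, and 1139 were higher without replicate 1 of kcs1-L338R, a library of the shared fit that stood apart from its own group.

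**Figure D1:**
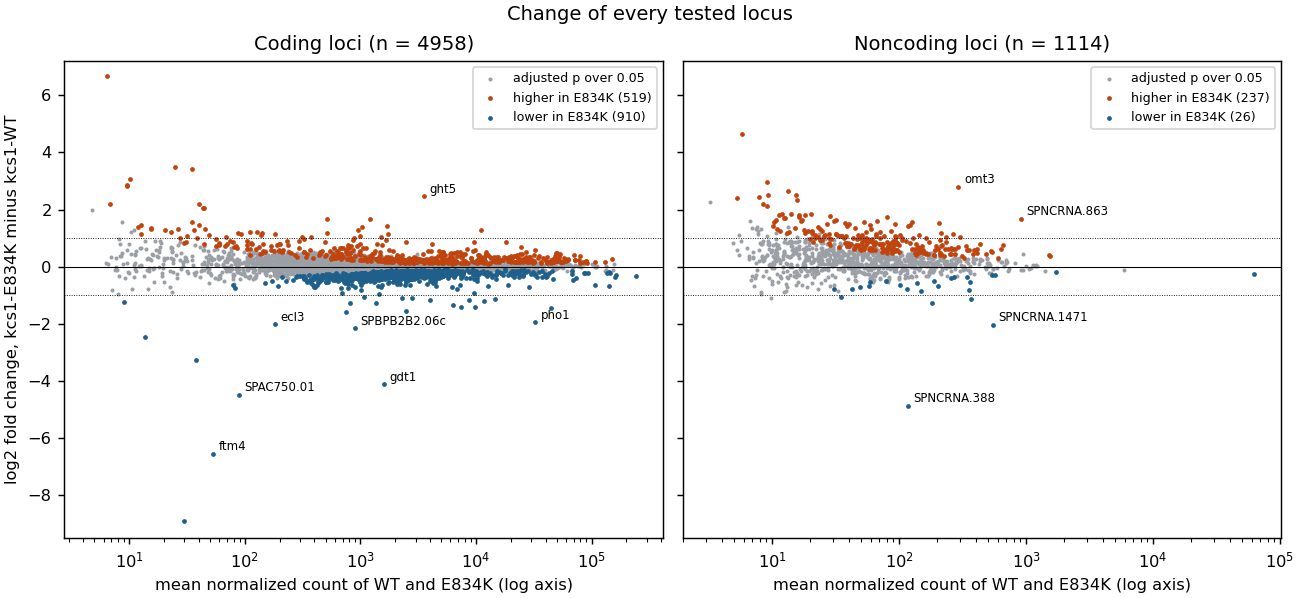
Log2 fold change (kcs1-E834K minus kcs1-WT) of each tested coding (left) and noncoding (right) locus against its mean normalized count on a log axis, with dotted lines at a 2-fold difference. Most of the 519 higher and 910 lower coding loci lie inside the dotted lines, while noncoding loci are mostly higher (237 against 26).

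All 7 genes of the phosphate acquisition list were lower in kcs1-E834K (the share of lower genes among all coding loci was 18.4%), with a median log2 difference of -1.59. pho1 encodes the secreted acid phosphatase, and it had 50749, 51102 and 52301 normalized counts in kcs1-WT and 14071, 12809 and 13162 in kcs1-E834K. That is a 3.85-fold drop (log2 -1.95 ± 0.073, adjusted p = 1.01e-09), and both groups were tight. pho84 encodes the main inorganic phosphate transporter. It went from 62551, 66674 and 65992 to 23131, 24024 and 23891, 2.75-fold lower (log2 -1.46 ± 0.06, adjusted p = 1.17e-09). tgp1, the glycerophosphodiester transporter gene, had 1097, 999 and 1276 in the control and 358, 370 and 395 in the mutant. It was 3-fold lower, and no mutant library came near a control library. ecl3, a small gene of the pho84 to pho1 neighbourhood, fell from 275, 316 and 293 to 77.1, 74.4 and 66.4 (4.04-fold). SPBPB2B2.06c is annotated as a phosphatase, and the paper lists it as an extracellular 5′-nucleotidase. It had 1209, 1638 and 1567 in kcs1-WT and 247, 346 and 397 in kcs1-E834K, the largest fold of the list (4.46-fold lower). The other phosphate transporters moved less, pho841 by -0.52 ± 0.047 on the log2 scale and pho842 by -0.23 ± 0.071 (adjusted p = 0.03). The mean in the mutant was still 13347 ± 651 (SD, n = 3) normalized counts for pho1 and 23682 ± 482 for pho84. In bulk libraries such as these, fewer cells expressing a gene and less RNA per cell cannot be told apart.

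Of the lncRNAs annotated upstream of pho84, tgp1 and pho1, the first 2 rose and the third did not pass the test. prt2, upstream of pho84, rose from 317, 358 and 351 normalized counts in kcs1-WT to 459, 467 and 494 in kcs1-E834K (log2 0.47 ± 0.11, adjusted p = 0.00732). nc-tgp1, upstream of tgp1, had 224, 210 and 230 in the control and 362, 321 and 400 in the mutant, a log2 difference of 0.70 ± 0.12 (adjusted p = 0.00106). For both lncRNAs the groups of libraries did not overlap. nc-pho1, upstream of pho1, was scarce, with 31.8, 40.6 and 24.5 in kcs1-WT and 50.4, 32.0 and 24.1 in kcs1-E834K, and its groups overlapped (log2 0.15 ± 0.28, adjusted p = 0.721). Among 10 further genes of phosphate and polyphosphate handling, 5 fell and 1 rose. vtc4 and vtc2, subunits of the vacuolar complex that makes polyphosphate, changed by -0.34 ± 0.054 and -0.32 ± 0.045 on the log2 scale, nrf1 of the same complex by -0.15 ± 0.049, and the alkaline phosphatase gene pho8 by -0.14 ± 0.04. The exopolyphosphatase gene ppx1 was the riser (0.36 ± 0.094, adjusted p = 0.0109). The transcription factor gene pho7, which drives the phosphate acquisition genes, and csk1 did not pass the test. With single libraries left out, nrf1 and pho8 no longer passed either (adjusted p up to 0.148 and 0.0617).

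The calls with the 3 largest drops lie near chromosome ends, where sequences are repeated and differ between strains, so reads may be shared with near-identical copies. gdt1, encoding a GDT1-like membrane protein, had 2938, 3278 and 2903 normalized counts in kcs1-WT against 42.2, 260 and 214 in kcs1-E834K (17.5-fold lower). The scarce loci numbered beside gdt1 (SPAC186.05c), SPAC186.06 and SPAC186.04c, changed by -3.26 ± 0.42 and -2.48 ± 0.49 on the log2 scale. Against kcs1-WT, gdt1, SPAC186.06 and SPAC186.04c stood at -5.70, -5.50 and -5.63 in the L338R allele. In the R332T allele they stood at -0.01, 0.86 and 0.33. Whether 1 change of this region underlies these values was not tested. SPAC750.01, an aldo/keto reductase gene, went from 158, 145 and 210 to 8.23, 6.05 and 8.45. ftm4, which encodes a protein with transmembrane helices, had 114, 99 and 114 reads in the control libraries and 0, 3 and 0 in the mutant ones, a ratio of 105 (95% interval 35.5 to 510, counting error only). The mutant libraries were near zero for SPAC750.01 and ftm4, and varied 6.18-fold among themselves for gdt1. SPAC750.06c, under the count threshold of a call, was read 59, 65 and 59 times in the control and not once in kcs1-E834K. With a floor of 3 reads over the group it was 58.5-fold lower (95% lower limit 47.1, counting error only). SPAC186.02c was the reverse, with 0 reads in every control library and 12, 11 and 14 in the mutant. With the same floor it was 12.9-fold higher (95% lower limit 9.95). Near the chromosome ends, taken as the outer 100 kb of each arm, 133 coding genes were tested. Of these 32 rose (24.1%, beside 10.5% of all coding loci) and 27 fell (20.3%, beside 18.4%), and the median log2 difference was 0.054. The 133 genes, of 4958 coding loci tested, supplied 7 of the 21 lower calls (pho1, pho84, ecl3 and SPBPB2B2.06c among them) and 3 of the 21 higher ones.

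Outside these groups, nap1, the gene of a chaperone for histones H2A and H2B, had the smallest p among the lowered calls. It had 11582, 9684 and 10800 normalized counts in kcs1-WT and 3930, 3939 and 4168 in kcs1-E834K (2.67-fold lower, adjusted p = 1.17e-09), with a narrow spread in the mutant. Of the other 12, 3 are membrane transporter genes. isp4, an oligopeptide transporter gene, fell from 3333, 4683 and 2994 to 1254, 1265 and 1229 (2.94-fold), and the control libraries varied more than the mutant ones. mfs3, a spermidine family transporter gene, went from 12822, 16411 and 13189 to 5277, 5819 and 4944 (2.64-fold), and mfs1, of the same superfamily, from 2926, 3362 and 3050 to 1517, 1407 and 1425 (2.15-fold). The uracil-regulated genes urg1 and urg2 were 2.53-fold and 2.24-fold lower. In both of them control replicate 2 stood above the other control libraries (urg1 7881, 12618 and 6641 against 3343, 3958 and 3433 in the mutant). pfl3, encoding a flocculin-type glycoprotein, dropped 2.42-fold, the4, an acyl-CoA thioesterase gene, 2.15-fold, and msa1, an RNA-binding protein gene, 2.11-fold. The last 4 lowered calls were SPBC25B2.08 (2.42-fold), SPBPB7E8.01 (2.32-fold), SPBC3H7.05c (2.24-fold) and SPAC1039.02 (2.2-fold). The first 3 of them are uncharacterized in the annotation used here. SPAC1039.02, like SPBPB2B2.06c, is annotated as a phosphatase and listed by the paper as an extracellular 5′-nucleotidase.

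The coding gene with the largest increase among the calls was ght5, which encodes the high-affinity glucose and fructose transporter that fission yeast needs in low glucose. It had 1029, 1127 and 1101 normalized counts in kcs1-WT and 6131, 6191 and 5589 in kcs1-E834K, 5.5-fold higher (log2 2.46 ± 0.20, adjusted p = 1.44e-06). mei2, the RNA-binding protein that commits cells to meiosis, rose from 531, 594 and 626 to 1950, 1724 and 1858 (3.16-fold, adjusted p = 4.48e-08). Neither gene had a mutant library within the range of the controls. SPAC15E1.02c, uncharacterized, went from 245, 191 and 296 to 763, 778 and 816 (3.22-fold), and the methyltransferase gene SPCC70.08c from 1043, 919 and 835 to 2677, 2414 and 2345 (2.66-fold). The next calls are heat shock genes. ssa1, an Hsp70 chaperone gene, had 538, 509 and 665 in kcs1-WT and 1575, 1394 and 1462 in kcs1-E834K (2.59-fold), and hsp9, encoding a small membrane-associated heat shock protein, 6051, 6006 and 7089 and 17067, 14347 and 15687 (2.46-fold). In both genes the groups were well apart.

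Smaller transcripts among the risers included srx1, the sulfiredoxin gene that restores oxidized peroxiredoxin, with 74.2, 71.1 and 84.8 normalized counts in the control and 159, 198 and 178 in the mutant. fip1, the iron permease gene, rose from 301, 280 and 358 to 625, 698 and 826 (2.28-fold, adjusted p = 1.62e-05). A second hexose transporter gene, ght1, had 68.5, 54.9 and 39.6 and 105, 143 and 116, which is 2.24-fold higher from a low base. The remaining calls rose 2.02-fold to 2.41-fold. They were SPAC637.03, SPAC11D3.19, the Con-6 family gene SPAC11D3.01c, the acetyltransferase genes aca1 and SPBC1271.07c, gal10 of galactose metabolism, the dehydrogenase gene SPCC663.08c, the glycoprotein gene pfl9, pbi2 (an inhibitor of proteinase B), the amino acid transporter gene isp5, lsd90 and rtc3. pbi2 may stand for them, with 1022, 987 and 962 in kcs1-WT and 2141, 2084 and 1877 in kcs1-E834K.

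**Figure D2:**
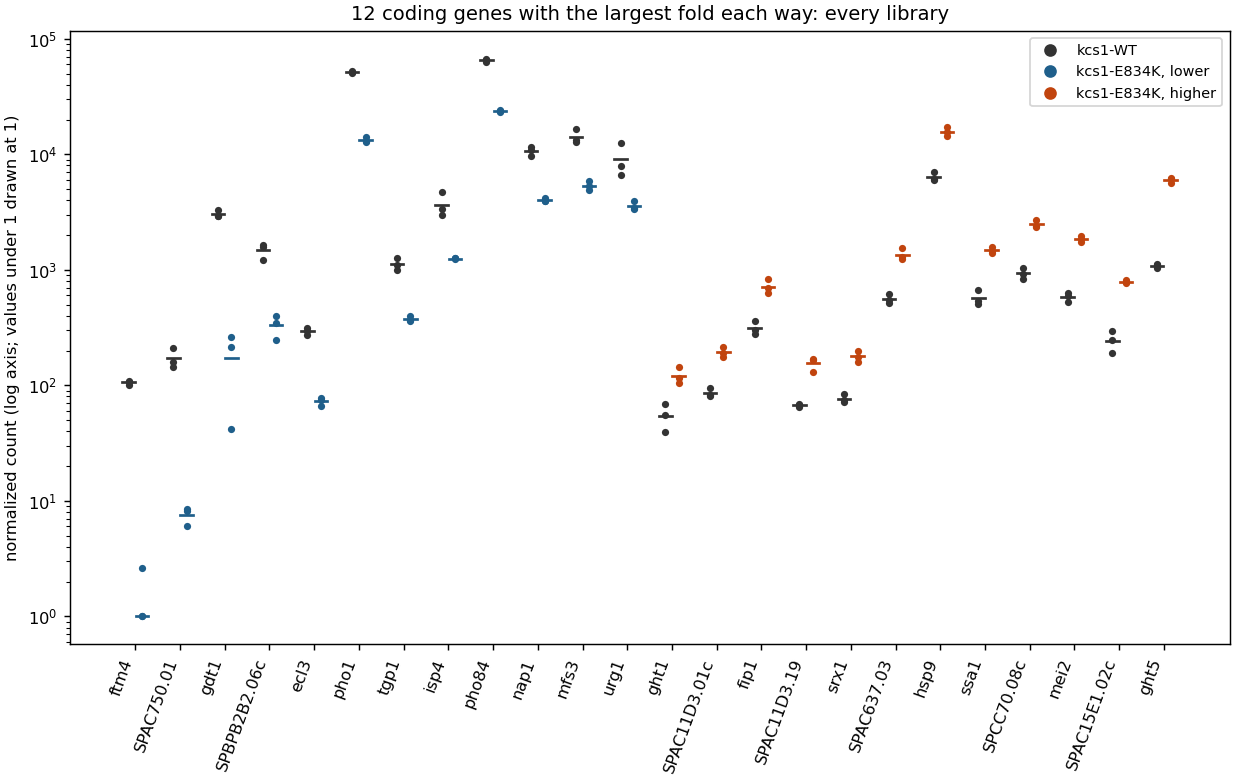
Normalized count on a log axis of each kcs1-WT (dark) and kcs1-E834K (colour) library for the 12 coding genes with the largest fold in each direction among the calls, with bars at the group means and values under 1 drawn at 1. In none of these 24 genes, which were chosen as calls, do the groups overlap, and they do not overlap in 52% of all tested coding loci.

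Below 2-fold, the 12 coding genes with the smallest p-values that rose included several of metabolism. gdh1, the NADP-specific glutamate dehydrogenase that assimilates ammonium, had 18665, 18313 and 19120 normalized counts in kcs1-WT and 31477, 29496 and 29693 in kcs1-E834K (1.62-fold, adjusted p = 1.12e-07). mmf1, a mitochondrial matrix protein gene, rose 1.82-fold and cit1, the citrate synthase gene, from 8066, 8023 and 7573 to 11726, 12088 and 11492 (1.49-fold). isa1, which acts in iron-sulfur cluster assembly, rose 1.37-fold, the superoxide dismutase gene sod1 1.41-fold and the catalase gene ctt1 1.47-fold. The others of these 12 were the reductase gene SPAC19G12.09 (1.8-fold), SPAC26H5.09c (1.83-fold), the ubiquitin hydrolase gene ubp11 (1.89-fold), tsp0 (1.91-fold), SPAC9E9.04 (1.41-fold) and the sulfate transporter gene sul2 (1.73-fold). In all 12 the libraries of the groups did not overlap, which follows largely from their choice by small p. The same held for 52% of all tested coding loci.

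Of the genes that fell by less than 2-fold, eng1 had the smallest p. It encodes the glucanase that cleaves the septum between daughter cells, and it went from 15992, 16230 and 15132 to 9646, 9796 and 10073 (1.6-fold lower, adjusted p = 1.89e-07). bfr1, the brefeldin A efflux transporter gene, had 11631, 13434 and 12736 in kcs1-WT and 7081, 6879 and 6183 in kcs1-E834K (1.88-fold). erg1, the squalene monooxygenase gene of sterol synthesis, dropped 1.47-fold, and cbf12, a transcription factor gene that promotes adhesion, 1.94-fold. The amine oxidase gene cao1 (1.51-fold), the phosphate transporter gene pho841 (1.44-fold), the cell separation gene adg2 (1.43-fold), SPAC513.07 (1.61-fold), the hexose transporter gene ght2 (1.46-fold), the malic enzyme gene mae2 (1.32-fold), the actin patch gene app1 (1.41-fold) and the silencing gene clr5 (1.4-fold) completed the 12. These changes were small, and as the genes were chosen by small p, a narrow spread between libraries was part of that choice. For example, mae2 had 83745, 85162 and 82683 in the control and 65543, 62898 and 61882 in the mutant.

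Genes of carbon use moved in both directions. Of 21 genes for hexose uptake and alternative carbon, 7 rose (33.3%) and 4 fell (19.0%), with a median log2 difference of 0.26. Within the ght family of hexose transporters, ght5, ght1 and ght3 (0.69 ± 0.19) rose, ght2 (-0.54 ± 0.055) fell, and ght4, ght6, ght7 and ght8 did not pass the test. The dihydroxyacetone kinase gene dak2 (0.65 ± 0.08), the glycerol-3-phosphate dehydrogenase gene gut2 (0.38 ± 0.072) and the repressor gene scr1 (0.47 ± 0.11) were among the risers. Of 15 glycolysis and fermentation genes tested, 10 were lower (66.7%) and 1 higher (6.67%), and the median was -0.23. eno101, the main enolase gene, had 183036, 156868 and 186231 normalized counts in kcs1-WT and 121053, 99998 and 107625 in kcs1-E834K (1.6-fold lower). The second enolase gene, eno102, was the riser, from 83.9, 73.1 and 87.6 to 135, 136 and 165 (1.77-fold). tdh1, glyceraldehyde-3-phosphate dehydrogenase, fell 1.55-fold, and pfk1, pdc101, hxk2, fba1, gpd3, gpm1, adh1 and pgk1 fell 1.15-fold to 1.29-fold. pyk1, pgi1, hxk1 and tpi1 did not pass the test. Members of the pairs eno101 and eno102, and tdh1 and gpd3, are close in sequence, so their reads may be split unevenly.

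**Figure D3:**
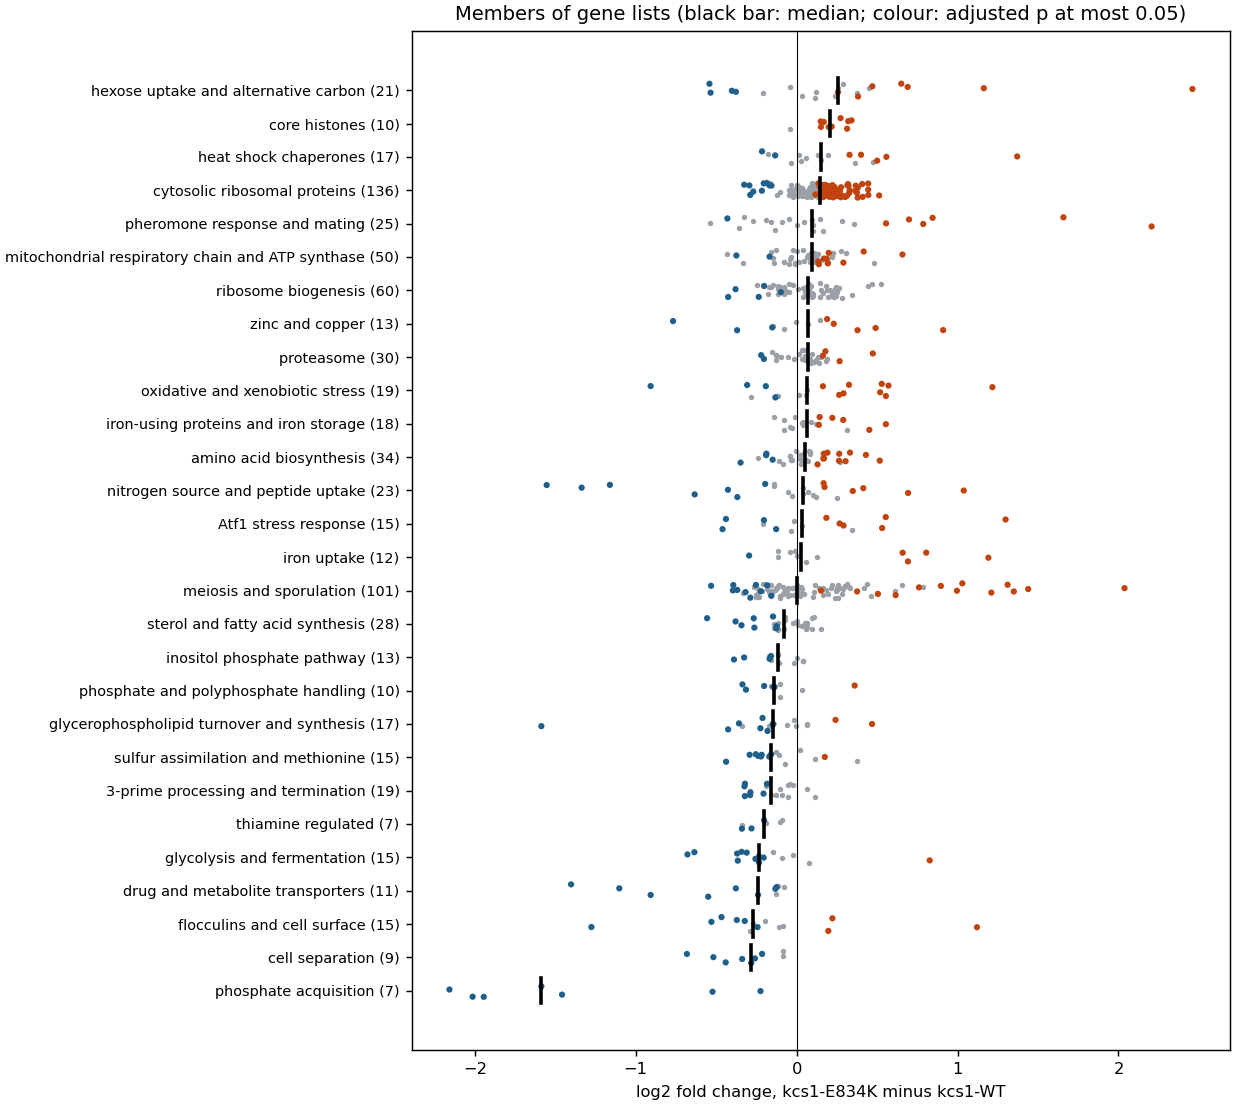
Log2 fold change (kcs1-E834K minus kcs1-WT) of each member of the gene lists with at least 5 tested members, coloured where the adjusted p was at most 0.05, with the median of each list as a black bar and the number tested in brackets. The phosphate acquisition list has its median at -1.59, and every other list has its median between -0.28 and 0.26.

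Many ribosomal protein and histone mRNAs rose slightly. Of 136 cytosolic ribosomal protein genes 70 were higher and 9 lower, with a median of 0.14, and 115 of the 136 had a positive log2 difference. The changes stayed between -0.33 and 0.51. rps21 had 43306, 43039 and 48597 normalized counts in kcs1-WT and 65598, 60751 and 57415 in kcs1-E834K (1.36-fold), and rpl4302 21054, 20416 and 22478 and 30323, 29710 and 26991 (1.36-fold). Paralogues are common in this family, which makes single members uncertain. Of 60 ribosome biogenesis genes 5 fell (8.33%, beside 18.4% of all coding loci), although 38 had a positive log2 difference and the median was 0.073. The 5 were utp8, utp22, utp21, fib1 and cbf5, and the last 2 no longer passed with some single library left out (adjusted p up to 0.0578 and 0.139). Of 10 core histone genes 9 rose, with a median of 0.21. hta1, for histone H2A, went from 13388, 13681 and 14078 to 16846, 17315 and 17215 (1.25-fold), and htb1, for H2B, was the exception at -0.04 ± 0.045 (adjusted p = 0.539).

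Stress genes were split. Among 17 heat shock chaperone genes 5 rose (29.4%) and 2 fell (11.8%), and the median was 0.15. Besides ssa1, the risers were hsp16 (0.56 ± 0.15), wos2 (0.50 ± 0.17), sti1 (0.40 ± 0.11) and hsp10 (0.33 ± 0.049). The genes that fell were ssa2 and the heat shock factor gene hsf1, by 0.22 and 0.13 on the log2 scale. hsf1 lay close to the threshold (edgeR adjusted p = 0.0495), and hsp104 and hsp90 did not pass the test. None of wos2, hsp16, sti1 and ssa2 passed in every fit with 1 library left out (adjusted p up to 0.144, 0.0635, 0.0686 and 0.135). Of 15 genes of the Atf1 stress response, 6 were higher (40.0%) and 4 lower (26.7%). The trehalose phosphate synthase gene tps1 rose 1.47-fold from 7505, 7161 and 8010 to 12206, 10746 and 10331, whereas rds1 (-0.44 ± 0.052) and the phosphatase gene pyp2 (-0.46 ± 0.11) fell. Of 19 oxidative and xenobiotic stress genes 9 rose and 4 fell. Thioredoxin trx1 (0.33 ± 0.062), glutaredoxin grx1 (0.52 ± 0.057) and the quinone reductase gene obr1 (0.57 ± 0.083) went up with srx1, and bfr1 and gcs1 (-0.31 ± 0.072) went down.

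Metal genes also moved both ways. Of 12 tested iron uptake genes 4 rose (33.3%) and 1 fell (8.33%). The risers were the reductive uptake genes fip1, fio1 (0.81 ± 0.17) and frp1 (0.69 ± 0.18), and str1 (0.66 ± 0.097), a transporter of iron-siderophores. sib1, for ferrichrome synthesis, fell (-0.30 ± 0.066). The iron regulator genes fep1 and php4 did not pass the test. Of 18 genes of iron-using proteins and iron storage 6 rose, including aconitase aco1 (0.29 ± 0.051). In the zinc and copper list, zrt1, the zinc uptake transporter gene, fell from 7037, 12002 and 6598 to 4971, 5135 and 4937 (1.7-fold), with control replicate 2 far above the others, and ctr4, a copper transporter gene, fell by 0.37 on the log2 scale. The metallothionein gene zym1 rose from 220, 160 and 235 to 425, 352 and 379 (1.88-fold), and adh4, sod1, zhf1 and atx1 rose by less.

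In the nitrogen source list of 23 genes, 6 rose (26.1%) and 7 fell (30.4%). Among those that fell were isp4, urg1, urg2, urg3 (-0.63 ± 0.087), put4 (-0.43 ± 0.078) and uga1 (-0.37 ± 0.096), whereas the amino acid transporter gene isp5, gdh1, gdh2 (0.35 ± 0.065) and the vacuolar protease gene isp6 (0.41 ± 0.046) rose. Of 34 amino acid biosynthesis genes 11 were higher and 4 lower. Among the risers were genes of arginine synthesis, arg12 from 22418, 22259 and 21557 to 32328, 31728 and 30682 (1.43-fold), arg5 at 1.35-fold and arg4 at 1.23-fold. In sulfur assimilation and methionine synthesis 8 of 15 genes fell and 1 rose. met11 (-0.44 ± 0.082), sam1 (-0.29 ± 0.045) and met26 (-0.25 ± 0.048) were the strongest of the fallers, and the riser was the transcription factor gene zip1 (0.17 ± 0.043).

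Among 25 pheromone and mating genes 6 rose and 1 fell, and the median was 0.098. Beside mei2 they were ste11, the transcription factor that starts sexual differentiation (513, 490 and 522 to 650, 740 and 852, 1.47-fold), the MAP kinase gene spk1 (1.62-fold), ste4 (1.73-fold), map1 (1.8-fold) and mfm1, which stayed near zero. The pheromone receptor genes mam2 and map3 and the G protein gene gpa1 did not pass the test, and ste6 fell (-0.43 ± 0.11). Of the 101 tested loci with mug or meu names, which were named for meiotic expression, 13 rose (12.9%) and 10 fell (9.9%). The shares were 10.5% and 18.4% over all coding loci, and 21.3% and 2.33% over all noncoding loci. This list is mixed, as it also holds noncoding loci, among them the risers meu3 and meu19. Its median was 0.0048 (-0.0011 with RLE scaling). The largest rises were in scarce transcripts such as mug14 (24.1, 20.3 and 6.59 to 76.1, 70.1 and 62.8).

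Genes for cell separation were lower. Of 9 in the list 7 fell, with a median of -0.28. Among them were eng1, adg2, adg1 (-0.34 ± 0.053), adg3 (-0.26 ± 0.041), agn1 (-0.28 ± 0.043) and the septum protein gene mid2. In the flocculin and cell surface list, 6 of 15 fell and 3 rose. pfl8 (-0.53 ± 0.12), pfl7 (-0.47 ± 0.11) and pfl2 (-0.24 ± 0.051) fell with pfl3, whereas pfl9 rose from 88.7, 88.4 and 82.9 to 208, 152 and 208. Of 11 drug and metabolite transporters 8 fell (median -0.24).

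In sterol and fatty acid synthesis 8 of 28 genes fell (28.6%, beside 18.4% of all coding loci), and 10 had a positive log2 difference. erg31 (-0.38 ± 0.05), erg7 (-0.34 ± 0.054) and the sterol sensor gene scp1 (-0.27 ± 0.047) accompanied erg1, and the fatty acid synthase genes fas1 and fas2 did not pass the test. Of 17 glycerophospholipid genes 8 fell (47.1%) and 2 rose. The phospholipase gene plb2 fell from 15846, 17217 and 17752 to 12655, 12583 and 12587, its relative plb1 rose from 41596, 43306 and 42465 to 60927, 60882 and 54412 (1.38-fold), and the glycerophosphodiesterase gene gde1 fell 1.28-fold. Among 13 inositol phosphate genes 4 fell (30.8%), ipk1 at -0.39 ± 0.06, asp1, stt4 and the inositol transporter gene itr1. The phospholipase C gene plc1, aps1, siw14 and arg82 did not pass the test. Of 19 genes for 3′ processing and termination 7 fell (36.8%), with a median of -0.16. These were seb1 (3578, 3391 and 3383 to 2956, 2647 and 2682), swd22, ctf1, cft1, pta1, iss1 and dhp1, by 1.14-fold to 1.25-fold, while ssu72, pcf11 and rhn1 did not pass. pta1, iss1 and dhp1 no longer passed with some single library left out (adjusted p up to 0.0879, 0.104 and 0.0634).

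Of 50 respiratory chain and ATP synthase genes 9 rose (18.0%) and 2 fell (4.0%), with a median of 0.093. cox8 (0.42 ± 0.084) and atp15 (0.29 ± 0.054) were among the risers. Of 30 proteasome genes 4 rose (13.3%, beside 10.5% of all coding loci) and 2 fell (6.67%, beside 18.4%). In the thiamine-regulated list 3 of 7 fell, thi9 the most (-0.34 ± 0.074). Of 13 annotated Tf2 retrotransposon loci 3 had enough counts, and Tf2-11 rose from 20.2, 23.4 and 20.7 to 63.8, 51.9 and 39.8, although the near-identical copies share reads.

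Noncoding loci that changed were mostly higher. At the adjusted p, 237 noncoding loci were higher in kcs1-E834K (21.3% of 1114 tested) and 26 were lower (2.33%). The median log2 difference was 0.30 among noncoding loci and -0.012 among coding loci. Most of them are scarce, with a median of 69.4 normalized counts among the noncoding loci that rose, and the median rise was 1.79-fold. The gap between the classes varied with the level. Under 20 normalized counts 13.9% of noncoding and 11.9% of coding loci were higher, and from 20 to 50 the order was reversed, with 18.8% and 22.9%. The shares were 27.7% and 13.5% from 50 to 100, 20.2% and 10.4% from 100 to 200, 29.6% and 3.49% from 200 to 500, and 18.2% of 44 noncoding and 11.5% of 3682 coding loci from 500 upward. Below 50 counts the coding median was also raised, at 0.302 under 20 and 0.287 from 20 to 50. Scarce loci of both classes seldom fell. The lower shares of noncoding and coding loci were 0% and 2.38% under 20 counts, and 1.44% and 2.41% from 20 to 50. They were 1.15% and 3.85% from 50 to 100, and 3.93% and 1.54% from 100 to 200. From 200 to 500 they were 5.6% and 5.37%, and from 500 upward 11.4% and 23.3%. With single libraries left out, 142 noncoding loci rose without control replicate 1 and 151 without mutant replicate 2, and 16 and 13 fell.

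Noncoding RNA other than snoRNA, snRNA, rRNA and tRNA took 0.774% to 0.792% of counted reads in kcs1-WT and 0.776% to 0.846% in kcs1-E834K, so the summed share overlapped. The snoRNA share was higher in each mutant library (0.0120% to 0.0127%) than in any control library (0.00875% to 0.00923%). These RNAs mostly lack a poly(A) tail, and the part that poly(A) selection has in their change was not tested. By class, 225 of 1062 tested loci of the general noncoding set rose, 8 of 27 snoRNA, 2 of 4 snRNA and 2 of 21 rRNA loci. Of the general set, 21.2% rose and 2.35% fell. In the ASM294v3 annotation, 675 of its loci overlap a coding gene only on the opposite strand. Of these, 150 rose (22.2%) and 15 fell (2.22%). Of the 242 that overlap no coding gene, 56 rose (23.1%) and 4 fell (1.65%), so both higher shares lay near that of the general set. Of the 139 that overlap a coding gene on the same strand, 19 rose (13.7%) and 6 fell (4.32%). Whether these shares differ by position was not tested. Whether reads were counted by strand is not given in the sources used here, so those of overlapping antisense partners may not be fully separated.

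**Figure D4:**
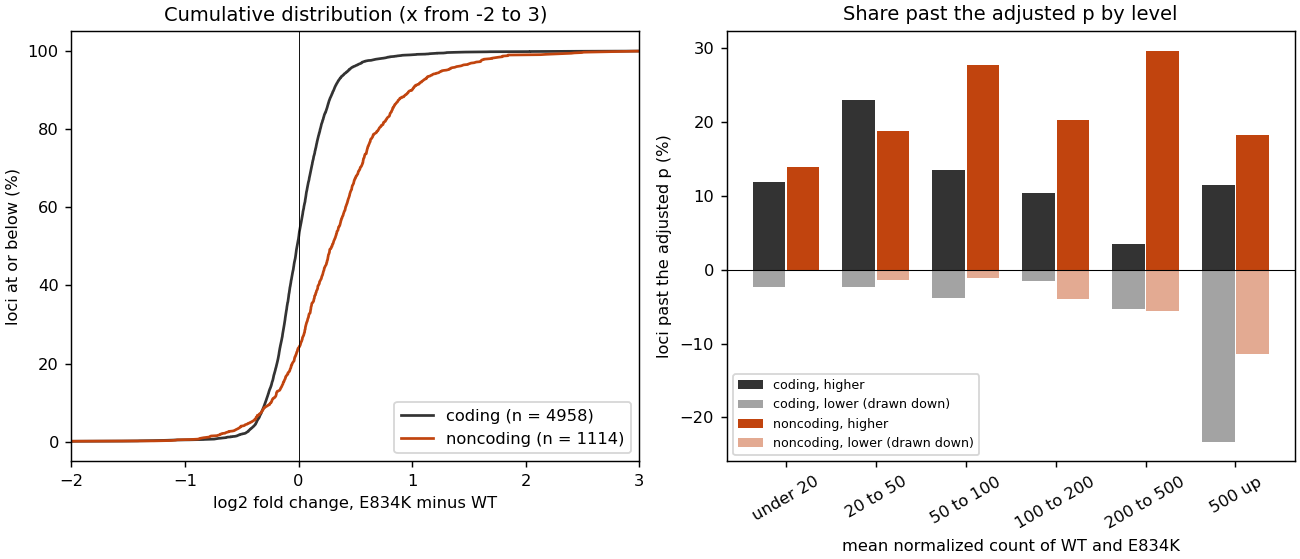
Left, cumulative percentage of coding and noncoding loci by log2 fold change (kcs1-E834K minus kcs1-WT), cut at -2 and 3. Right, percentage of loci past the adjusted p by mean normalized count, higher drawn up and lower drawn down. Noncoding loci exceed coding ones in the higher share from 50 counts upward.

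With the thresholds of a call, 20 noncoding loci were higher (1.8% of those tested) and 4 lower (0.359%). omt3, an lncRNA of meiotic nuclear foci, rose the most, from 83.9, 83.3 and 54.6 normalized counts in kcs1-WT to 499, 516 and 525 in kcs1-E834K (6.94-fold, adjusted p = 7.93e-08). Its neighbour omt2, a coding gene, had a log2 difference of 0.072 ± 0.17 (adjusted p = 0.784). SPNCRNA.863 went from 361, 497 and 458 to 1389, 1364 and 1422 (3.17-fold), and mrp1, the RNA of RNase MRP, from 87.7, 122 and 112 to 351, 288 and 280 (2.86-fold). In these 3 loci no library of 1 group entered the range of the other. SPNCRNA.1344 (3.04-fold) lies antisense to SPBC1271.08c (0.66 ± 0.14) and beside SPBC1271.07c (1.08 ± 0.11), and all of them rose. SPNCRNA.719 (3.3-fold) and SPNCRNA.747 (2.94-fold) overlap mug84 and osh3, which did not pass the test. The snoRNA loci snR30 (200, 196 and 201 to 418, 405 and 395) and snR95 rose about as much as each other, 2.04-fold and 2.14-fold.

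Of the 4 noncoding calls that were lower, SPNCRNA.1471 had 809, 973 and 874 in kcs1-WT and 244, 208 and 194 in kcs1-E834K (4.11-fold). It overlaps ser2, a serine synthesis gene that fell as well (-0.41 ± 0.056), and pof9, which did not pass, and it lies beside SPBC3H7.05c, also a lowered call. SPNCRNA.388 had 334, 309 and 36.7 in kcs1-WT and 0, 5.19 and 19.3 in kcs1-E834K. SPNCRNA.1487 had 338.4, 351.5 and 81.96 in the control and 75.1, 112 and 133 in the mutant, with overlap of the groups. SPNCRNA.1487 did not pass the adjusted p without control replicate 1 or 2 or without mutant replicate 1 or 2 (adjusted p = 0.0742 to 0.116). In both loci control replicate 3 was far below the other control libraries. SPNCRNA.1397 fell 2.18-fold, from 517, 530 and 471 to 218, 237 and 242.

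The values of the other alleles, R332T and L338R, were read beside those of kcs1-E834K. They were compared with the same kcs1-WT libraries, and so likeness of these values is not independent. A direct test between alleles does not use those controls. It found 849 loci that differ between kcs1-E834K and kcs1-R332T (13.9% of those tested), 602 higher in E834K and 247 lower. The count was 498 without E834K replicate 1, 535 without E834K replicate 2, and 538, 506 and 523 without R332T replicates 1, 2 and 3. The smallest p-values belonged to phosphate genes. pho84 was higher by 3.45 ± 0.066 on the log2 scale (adjusted p = 8.34e-14) and pho1 by 4.05 ± 0.084 (adjusted p = 1.33e-13): against kcs1-WT, pho1 changed by -1.95 in E834K and -5.99 in R332T. All 7 phosphate acquisition genes stood higher in E834K than in R332T. mei2 changed in opposite directions, with 1.66 in E834K and -0.85 in R332T, a difference of 2.51 ± 0.10 (adjusted p = 8.93e-10). nap1 fell by -1.41 in E834K and -0.21 in R332T, and SPAC750.01 changed by -4.50 and 1.71.

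Of the 42 coding calls, 32 differed from R332T at the adjusted p. Among them 12 of the higher calls were above R332T and 12 of the lower calls below it. In contrast, 6 lower calls stood above R332T and 2 higher calls below it. The 42 genes had been chosen by the same E834K libraries, at a large distance from kcs1-WT. That choice alone favours both a difference from R332T and a more extreme value in E834K, so these counts are descriptive. Of the 136 ribosomal protein genes 59 were higher in E834K than in R332T, as were 9 of the 10 core histone genes, while 6 of the 9 cell separation genes were lower. Of all tested loci, 9.88% were higher in E834K than in R332T and 4.05% lower. hsp9, gdh1 and ctt1 are examples of the risers, each near or below its control level in R332T (0.08, -0.018 and -0.37 against kcs1-WT). ght5, SPCC70.08c and fip1, in contrast, rose in both alleles (1.76, 1.17 and 1.39 in R332T).

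Against kcs1-L338R, 0 of 6093 loci differed at the adjusted p (0% called), and 893 (14.7%) had an unadjusted p under 0.05. DESeq2 called 20 loci. The count rose to 603 when L338R replicate 2 was left out and stayed at 0 or 1 when any other single library of the 2 groups was left out. The 5 loci with the smallest p were ent1 (0.28 ± 0.049, adjusted p = 0.273), the 5.8S ribosomal RNA locus SPRRNA.52 (1.09 ± 0.20), SPAC26F1.07 (-0.22 ± 0.046), the biotin transporter gene vht1 (0.39 ± 0.083) and mri1 (-0.34 ± 0.073), and none passed. This does not show that these alleles act alike. The values of E834K and L338R were -1.95 and -1.77 for pho1, 1.66 and 1.75 for mei2, and 2.46 and 2.31 for ght5. The estimates lay further apart for the calls with the 3 largest drops, with -4.13 and -5.70 for gdt1 (a difference of 1.57 ± 0.44, adjusted p = 0.3). They were -6.55 and -7.81 for ftm4 (a difference of 1.3 ± 1.5), and -4.50 and -5.10 for SPAC750.01 (0.60 ± 0.49). The mean counts in E834K and L338R were 0.865 and 0.346 for ftm4, and 7.58 and 4.82 for SPAC750.01. At counts this low, the gaps of these 2 genes do not separate the alleles.

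**Figure D5:**
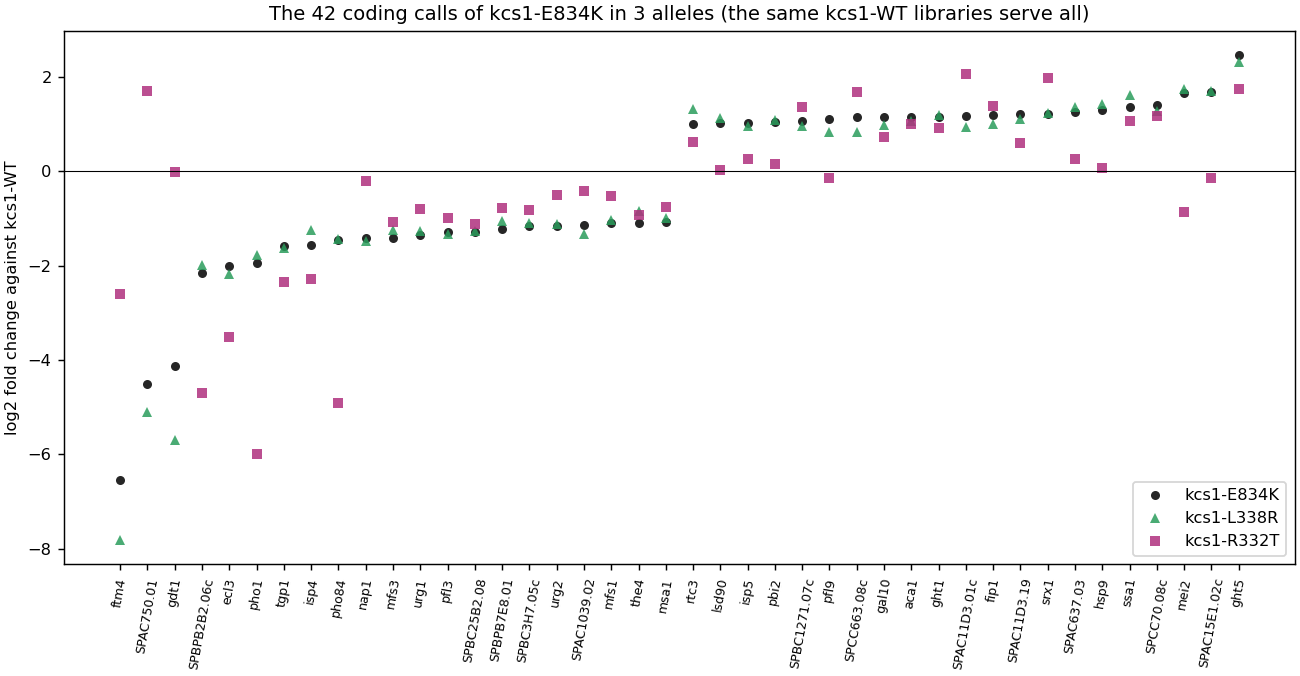
Log2 fold change against the same 3 kcs1-WT libraries of the 42 coding calls in kcs1-E834K (circles), kcs1-L338R (triangles) and kcs1-R332T (squares), ordered by the E834K value. The triangles lie near the circles for most genes but are lower for gdt1, ftm4 and SPAC750.01, none of which passed the test between these alleles. R332T is far lower for pho1, pho84 and SPBPB2B2.06c and on the other side of 0 for SPAC750.01 and mei2.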

How the data were processed

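Poly(A)+ RNA of 4 kcs1 groups (kcs1-WT, R332T, L338R, E834K, 3 biological replicates each) was sequenced in paired-end reads. The authors aligned the reads with HISAT2 2.1.0 to the ASM294v2 genome and counted them over annotated exons with HTSeq 0.10.0; the deposited values are whole-number counts per locus with no normalization. The labels and the methods name different directional library kits, and whether counting used strand is not given in the sources used here. Deposited tables of the authors' own DESeq2 comparisons hold fold changes and p-values and were not used.

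Counts were tested with edgeR 4.0.16 (R 4.3.3): TMM scaling, filterByExpr by group, glmQLFit and glmQLFTest on all 12 libraries (8 residual degrees of freedom), contrast kcs1-E834K minus kcs1-WT, with Benjamini-Hochberg adjustment over 6093 loci. A prior count of 0.125 was used. A call needed a 2-fold difference at an adjusted p of 0.05 or lower and a mean of at least 100 normalized counts in the higher group. Totals were 19515604 to 27776638 counts a library; no 2 libraries of a group agreed within sampling noise. Intervals for ratios of counts are exact 95% intervals and cover counting error only. The fit was tested on simulated data with 200 changed genes in this comparison (6064 loci). It called 96% of genes lowered by 1 on the log2 scale, 98% raised by 1, 60% lowered by 0.5 and 72% raised by 0.5. Of 5864 unchanged loci it called 10 (0.171%). The changed genes were drawn from loci with a mean of at least 50 normalized counts. These shares therefore do not cover scarcer loci or changes smaller than 0.5. Names were matched to the ASM294v3 annotation for 6848 of 6988 loci, which was used for names and neighbours only, and no sequence is printed.

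Named genes were kcs1 and asp1, the 12 coding and 5 noncoding calls with the largest fold each way, the 12 coding genes under 2-fold with the smallest p each way, up to 6 members of each of 29 gene lists with members needed to say what did not pass, and the 5 loci with the smallest p in each test between alleles. Other loci named were chosen after their values were seen, and 1 locus that the rule names is not reported here. The members and the lists were chosen with earlier results of these data known. Alternatives were DESeq2 1.42.0, RLE scaling, no filter on low counts, only the 6 libraries compared, a replicate block, and leaving out each replicate. Chosen after seeing the data were the fit without L338R replicate 1 and the count over loci with a mean of at least 100.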

Additional observations from a re-analysis of the deposited data

Results flagged for a closer look

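The same contrast, an allele against wild type, gave different sizes in kcs1-E834K and kcs1-R332T at 849 loci in the direct edgeR test between the alleles. The 5 with the smallest p were pho84 (3.45 ± 0.066 on the log2 scale, E834K minus R332T), pho1 (4.05 ± 0.084), mei2 (2.51 ± 0.10), SPAC750.01 (-6.21 ± 0.26) and nap1 (-1.20 ± 0.058). Adjusted p-values over all loci were 8.34e-14, 1.33e-13, 8.93e-10, 1.19e-09 and 5.86e-09. The search for a single deviating value within a group, which needs at least 4 samples, was not made with 3 libraries a group.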

How the results depend on the processing

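The 42 coding calls were all shared by DESeq2, RLE scaling, the fit with no filter on low counts, the fit of only the 6 libraries and the replicate block; without the minimum count 46 coding genes were called higher. Leaving out single libraries gave 20 to 22 higher and 20 to 22 lower coding calls. Of the 42 calls, 39 were shared without control replicate 3, and 40 without control replicate 2 or mutant replicate 1. The other fits with a library left out shared 41 or 42. Leaving out single libraries also gave 513 to 1139 higher and 615 to 1232 lower loci, and 142 to 310 higher and 13 to 33 lower noncoding loci. Restricted to a mean of at least 100 normalized counts, 84 noncoding loci were higher and 17 lower. For E834K against R332T the count was 2065 with only the 6 libraries and 498 to 630 with a library left out. For E834K against L338R it was 20 with DESeq2, 45 with the replicate block and 0 to 603 with a library left out. The causes were not tested. Of 227 named loci, 225 passed the adjusted p, and 31 of these no longer passed without some single library, none of them a coding call; the noncoding calls SPNCRNA.1371 and SPNCRNA.1487 were among them. The others, with adjusted p-values that reached 0.0501 (atp1) to 0.154 (thi4), were SPRRNA.52, Tf2-11, atp1, atp17, cbf5, dhp1, erg4, erg8, fib1, frp1, hht3, hsp16, iss1, mfs2, nrf1, pgc1, pho8, pta1, pup3, rpn10, rpn3, rpn9, sdh3, ssa2, ste6, sti1, stt4, thi4 and wos2. wos2 did not pass with DESeq2, nor sdh3 with DESeq2 or RLE scaling, nor cbf5 in the fit of 6 libraries. Further loci given in the text, such as hsf1, swd22 and pho842, are outside the 227. Their absence from this list does not show that they are stable. The log2 difference of kcs1 ranged from -0.0047 to 0.062 with a library left out, negative without E834K replicate 3. The deviations of same-numbered E834K and WT libraries correlated at 0.271, -0.048 and 0.247 across loci. These values are mixed and do not settle whether replicate numbers pair the samples. With the replicate block 1900 loci passed the adjusted p, beside 1696 without it. Loci with few reads limit the noncoding results.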
